A study of Mus musculus with 8 samples.

Results

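The genes described here are 10 components of bone morphogenetic protein (BMP) signalling in mouse liver: the type I receptors Bmpr1a and Acvr1, the type II receptor Bmpr2, the receptor-regulated SMADs Smad1, Smad5 and Smad9, the shared Smad4, the inhibitory Smad6 and Smad7, and the target gene Id1. They were chosen by symbol, with Smad9 set beside its relatives, out of 19938 genes with a probe set of their own. All 10 were measured, each by 1 probe set assigned to that gene alone. Smad9 stood well below the floxed controls in the livers with deleted Hmgb1, at 59.4% of their level, while the other 9 differed by less than 1.18-fold between group means. The choice used the contrast of deleted and control livers, so its values for these 10 genes are a description and carry no test.

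RNA of 4 Hmgb1 deleted livers and 4 floxed control livers was hybridised to arrays. The first group carried floxed Hmgb1 alleles, which encode an abundant chromatin protein, deleted by Cre under the albumin promoter, which is active in hepatocytes and leaves the gene intact in cells that do not use that promoter. The second group consisted of littermates with floxed Hmgb1 alleles, and their titles name no Cre, so effects of Cre and of Hmgb1 loss cannot be told apart. All were males aged 8 weeks, and the protocol gives a C57Bl/6 background after 5 backcrosses, whereas other label fields name Balb/c and stellate cells. The hepatocyte product Alb read 13.26 to 14.03 log2 on the 8 arrays and was brighter than 99.99% of genes. The stellate markers Lrat and Des read 7.82 (control 1) to 8.87 and 6.65 to 6.99, and array means of 10 stellate markers were 8.30 to 8.38 in deleted and 8.31 to 8.41 in control livers. Of these 10, Des was the dimmest, brighter than 55.6% of genes. Dcn was the brightest, at 11.29 to 11.59 log2 and brighter than 98.1% of genes. The labels do not state whether every array stands for its own animal, and the errors and p-values therefore cover array-to-array spread, which may be technical.

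BMPs are secreted ligands of the TGF-beta superfamily. They bring together type II and type I receptor kinases, and the type I receptor then phosphorylates SMAD1, SMAD5 and SMAD9 (also called SMAD8), which join SMAD4 and enter the nucleus. SMAD6 and SMAD7 are induced by the signal and dampen it. In liver, BMP2 and BMP6 from sinusoidal endothelial cells act on hepatocytes, where this route drives transcription of Hamp, the gene of the iron hormone hepcidin, and of Id1, Smad6, Smad7 and Atoh8.

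Hmgb1 itself was compared first, as a check of the labels, which is limited because its probe set lay near background. Its probe set read 4.91, 4.20, 4.53 and 4.74 log2 in the deleted livers, against 5.35, 5.42, 5.45 and 5.78 in the control livers. It fell by 0.91 on the log2 scale (SE 0.14, limma adjusted p = 0.0216), a call that was lost without deleted 3, deleted 4, control 3 or control 4 and with all probe sets tested (−0.77 to −1.01 over single arrays left out). Over all genes 138 of 19938 passed an adjusted p of 0.05 (59 higher and 79 lower, or 33 and 28 with arrays centred on their medians). That number was 67, 53 and 37 without deleted 2, 3 and 4, and 321, 82, 71 and 42 without control 1, 2, 3 and 4. Control 1 lay apart on the first principal component, at 26.6 against −11.7 to 11.4 for the other 7 arrays, and was the lowest control for 6 of the 10 BMP and SMAD genes. Deleted 1 was the lowest deleted array for 6 of the 10 as well.

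Smad9, the least studied of the 3 SMADs activated by BMP receptors, read 6.87, 7.23, 7.30 and 7.06 log2 in the deleted livers, against 7.70, 8.22, 7.63 and 7.92 in the control livers. The groups did not overlap, and the highest deleted array lay 0.33 below the lowest control. Means were 7.12 ± 0.19 in deleted and 7.87 ± 0.27 in control livers (SD, n = 4 each), a log2 difference of −0.75 (SE 0.13, 95% interval −1.04 to −0.46), or 1.69-fold lower. Smad9 was the 1 member among the 0.692% of all genes that passed the threshold in either direction (0.396% as lower), and the 1 member whose groups did not overlap, which held for 5.57% of all genes (3.28% with deleted higher, 2.3% with deleted lower). Because the gene was chosen with this contrast known, nothing is read from that place. The difference ran from −0.64 without control 2 to −0.83 without control 3. The gene was no longer among those past the threshold without any 1 of the 4 deleted arrays, without control 2 or control 4, with all probe sets tested or with arrays centred on their medians.

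**Figure D1:**
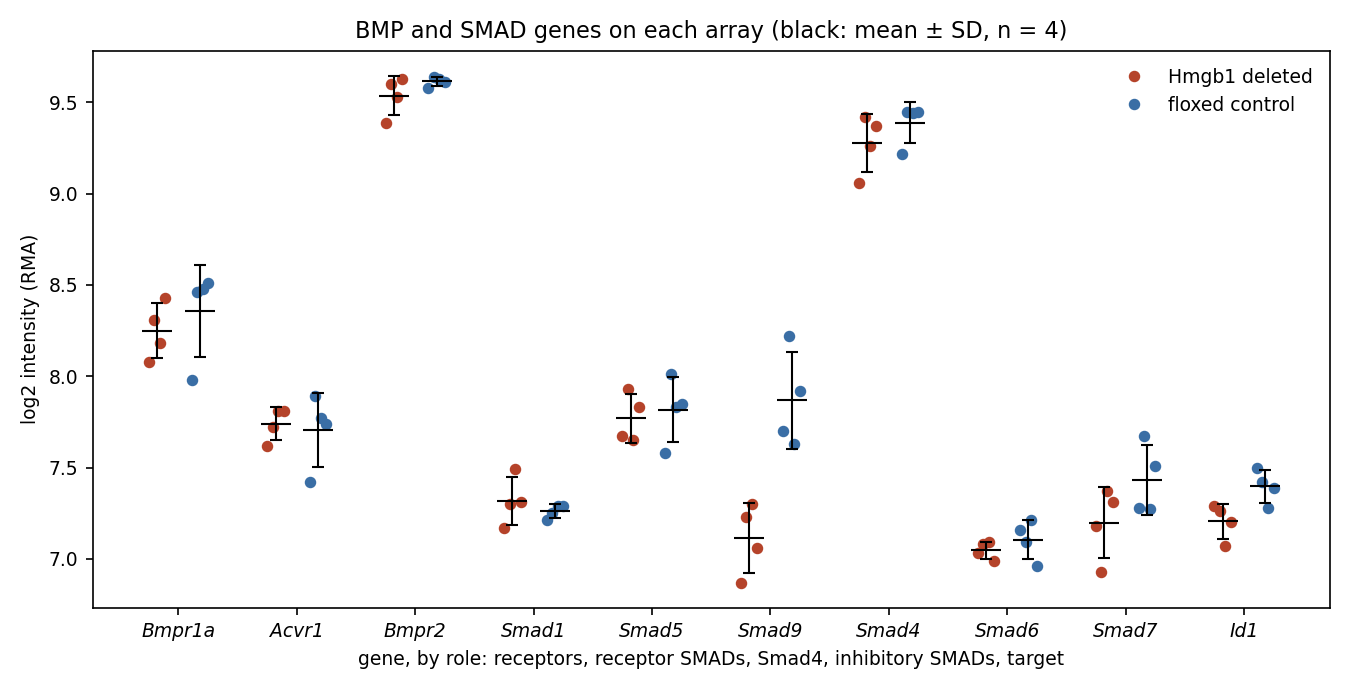
Log2 intensity (y axis) of the 10 BMP and SMAD genes (x axis, by role) on each array, with Hmgb1 deleted livers in red left of floxed control livers in blue and the mean ± SD of 4 arrays in black. Smad9 reads 6.87 to 7.30 in deleted and 7.63 to 8.22 in control livers without overlap, while both groups overlap for every other gene.

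The close relatives Smad1 and Smad5, which transmit the same signal, are given beside it. Smad1 read 7.17, 7.30, 7.49 and 7.31 log2 in deleted livers, against 7.21, 7.25, 7.29 and 7.29 in control livers. Its control arrays were tight, its deleted arrays lay on both sides of them, and the log2 difference was 0.058 (SE 0.072, 95% interval −0.10 to 0.22). Smad5 read 7.67, 7.93, 7.65 and 7.83 log2 in deleted livers, against 7.58, 8.01, 7.83 and 7.85 in control livers. Control 1 was the lowest and control 2 the highest of all 8 arrays for Smad5, and the log2 difference was −0.048 (SE 0.098, 95% interval −0.26 to 0.17). The difference between these genes and Smad9 was not tested. Single arrays moved these small values, with Smad1 at 0 without deleted 3 and 0.11 without deleted 1, and Smad5 at 0.017 without control 2 and −0.13 without control 1.

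Smad4, the partner that BMP and TGF-beta signals share, read 9.06, 9.42, 9.26 and 9.37 log2 in deleted livers, against 9.22, 9.45, 9.44 and 9.45 in control livers. Deleted 1 was the lowest array, and 3 of the 4 controls lay within 0.01 of each other with control 1 below them. The log2 difference was −0.11 (SE 0.089, 95% interval −0.31 to 0.085), −0.17 without control 1 and −0.040 without deleted 1. The SMADs of the TGF-beta arm, which are no members, had log2 differences of 0.028 for Smad2 (SE 0.088, limma adjusted p = 0.991) and 0.028 for Smad3 (SE 0.087, limma adjusted p = 0.991). Both turned negative without control 1, at −0.041 and −0.034, and so did Smad2 without deleted 2 (−0.0083) and Smad3 without deleted 4 (−0.018) and with array weights (−0.0092).

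The inhibitory SMADs are feedback targets as well as brakes of the route. Smad7 read 7.18, 6.93, 7.37 and 7.31 log2 in deleted livers, against 7.28, 7.67, 7.27 and 7.51 in control livers. The groups overlapped, since 2 deleted arrays lay above the 2 lowest controls. The log2 difference was −0.24 (SE 0.11, 95% interval −0.49 to 0.018), and −0.15 without deleted 2 or −0.16 without control 2. Smad6 read 7.03, 7.08, 7.09 and 6.99 log2 in deleted livers, against 7.16, 7.09, 7.21 and 6.96 in control livers, with control 4 lowest of all. Its log2 difference was −0.058 (SE 0.068, 95% interval −0.21 to 0.092), from −0.022 without control 3 to −0.11 without control 4.

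The receptors of the list differed little between group means. Bmpr1a, the type I receptor also known as ALK3, read 8.08, 8.31, 8.18 and 8.43 log2 in deleted livers, against 7.98, 8.46, 8.48 and 8.51 in control livers. Control 1 was the lowest of all arrays while the other 3 controls were the highest, so the log2 difference of −0.11 (SE 0.12, 95% interval −0.38 to 0.16) became −0.23 without control 1, −0.20 with array weights and −0.051 without deleted 1. Acvr1, the type I receptor ALK2, read 7.62, 7.72, 7.81 and 7.81 log2 in deleted livers, against 7.42, 7.89, 7.77 and 7.74 in control livers. Here too control 1 was the lowest array, and the log2 difference of 0.035 (SE 0.097, 95% interval −0.18 to 0.25) turned to −0.060 without it and to −0.030 with array weights. Bmpr2, the type II receptor, read 9.39, 9.60, 9.53 and 9.63 log2 in deleted livers, against 9.58, 9.64, 9.63 and 9.61 in control livers. Deleted 1 was its lowest array, and the log2 difference of −0.078 (SE 0.066, 95% interval −0.22 to 0.068) shrank to −0.028 without it.

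**Figure D2:**
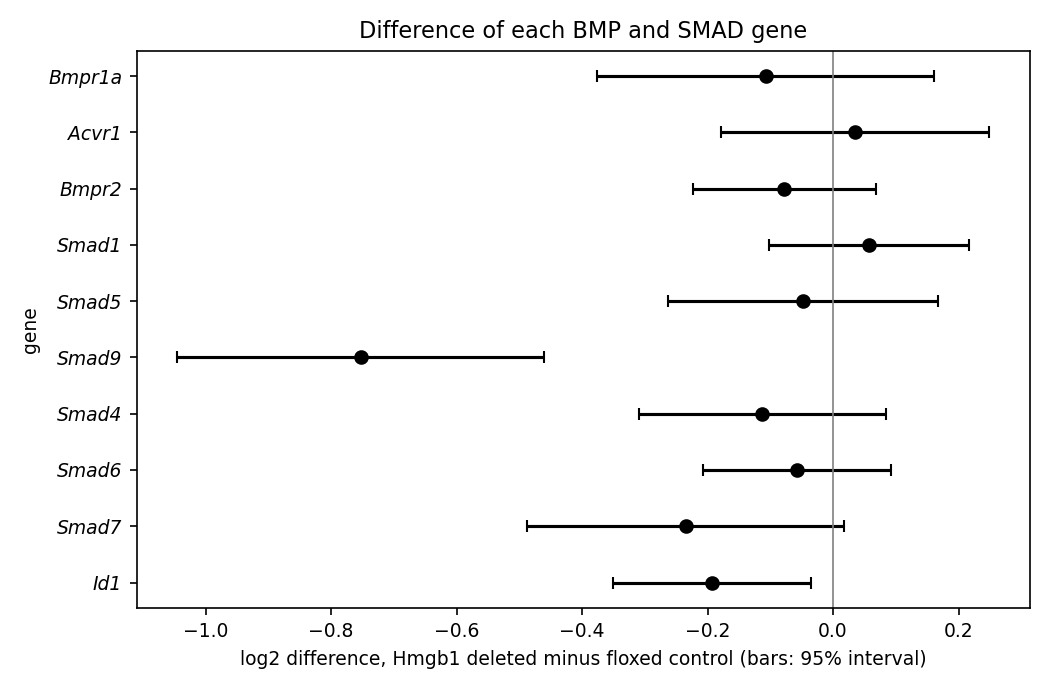
Log2 difference of each BMP and SMAD gene, Hmgb1 deleted minus floxed control (x axis), with points for the fitted difference and bars for its 95% interval, genes down the page by role. The interval of Smad9 runs from −1.04 to −0.46, and those of the other 9 genes lie within 1.5-fold in either direction, as do those of 19371 of all 19938 genes.

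Id1, a helix-loop-helix inhibitor of transcription and a direct target of BMP-activated SMADs, read 7.29, 7.26, 7.07 and 7.20 log2 in deleted livers, against 7.50, 7.42, 7.28 and 7.39 in control livers. The groups met at a single point, with deleted 1 lying 0.01 above control 3. Means were 7.21 ± 0.097 in deleted and 7.40 ± 0.091 in control livers (SD, n = 4 each), a log2 difference of −0.19 (SE 0.072, 95% interval −0.35 to −0.035). It ran from −0.15 without deleted 3 to −0.23 without control 3. Over the 10 genes the median log2 difference was −0.0925 (8 lower, 2 higher), and without Smad9 it was −0.0775, where the median of all genes was 0.

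The other targets on the list of 9 were compared next, and 0 of 9 passed the threshold (limma). Of the 9, 3 had an unadjusted p under 0.05, where 9.46% of all genes did, and 8 were lower, beside 9928 of all 19938 genes. Hamp read 12.33, 12.21, 12.02 and 12.14 log2 in deleted livers, against 12.54, 12.50, 12.40 and 12.60 in control livers. All deleted arrays lay below all controls, with a log2 difference of −0.34 (SE 0.077, limma adjusted p = 0.0964). Hamp passed the threshold in 2 of 18 alternatives, array weights (limma adjusted p = 0.0232) and the replicate block (limma adjusted p = 0.0437). Its difference was smallest after quantile normalization again, at −0.26 (limma adjusted p = 0.159). Over all alternatives the adjusted p ranged from 0.0232 to 0.321, the latter without control 4. Atoh8, a transcription factor, read 8.13, 8.17, 8.44 and 8.32 log2 in deleted livers, against 8.66, 8.42, 8.43 and 8.52 in control livers, a log2 difference of −0.24 (SE 0.085, limma adjusted p = 0.325) with a small overlap.

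Id2, a relative of Id1, read 11.03, 10.91, 11.17 and 10.85 log2 in deleted livers, against 10.83, 11.99, 11.72 and 11.75 in control livers. Control 1 lay just below the deleted arrays and the other 3 controls above them. The log2 difference of −0.58 (SE 0.20, limma adjusted p = 0.325) was −0.83 without control 1 (limma adjusted p = 0.00212, range over all alternatives 0.00212 to 0.649). Id3 varied widely within both groups, from 7.58 to 8.47 in deleted and from 7.46 to 8.92 in control livers, with a log2 difference of −0.010 (SE 0.29, limma adjusted p = 0.996) that became 0.30 without control 2, 0.13 without deleted 2, 0.032 without deleted 3, 0.0083 without control 4 and 0.010 with arrays centred on their medians. Id4 had −0.012 (SE 0.086, limma adjusted p = 0.995), and 0.048 without control 1, 0.046 without deleted 4 or with array weights and 0.0075 with arrays centred. If the samples are whole liver, which the labels leave unsettled, fewer cells of a type and less RNA per cell cannot be told apart. Markers of hepatocytes, the cells in which Hamp is made, were lower for 9 of 10, beside 9928 of all 19938 genes. Their array means were 12.81, 12.88, 12.82 and 12.50 in deleted livers, against 12.84 to 12.91 in control livers. Deleted 4, the lowest, also had a lower bright end, with a highest value of 13.58 log2 against 14.23 to 14.46 on the other arrays. The part of hepatocytes or of this array's scale in these values was not tested. Without deleted 4 the log2 differences were −0.73 for Smad9, −0.19 for Id1 and −0.32 for Hamp.

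**Figure D3:**
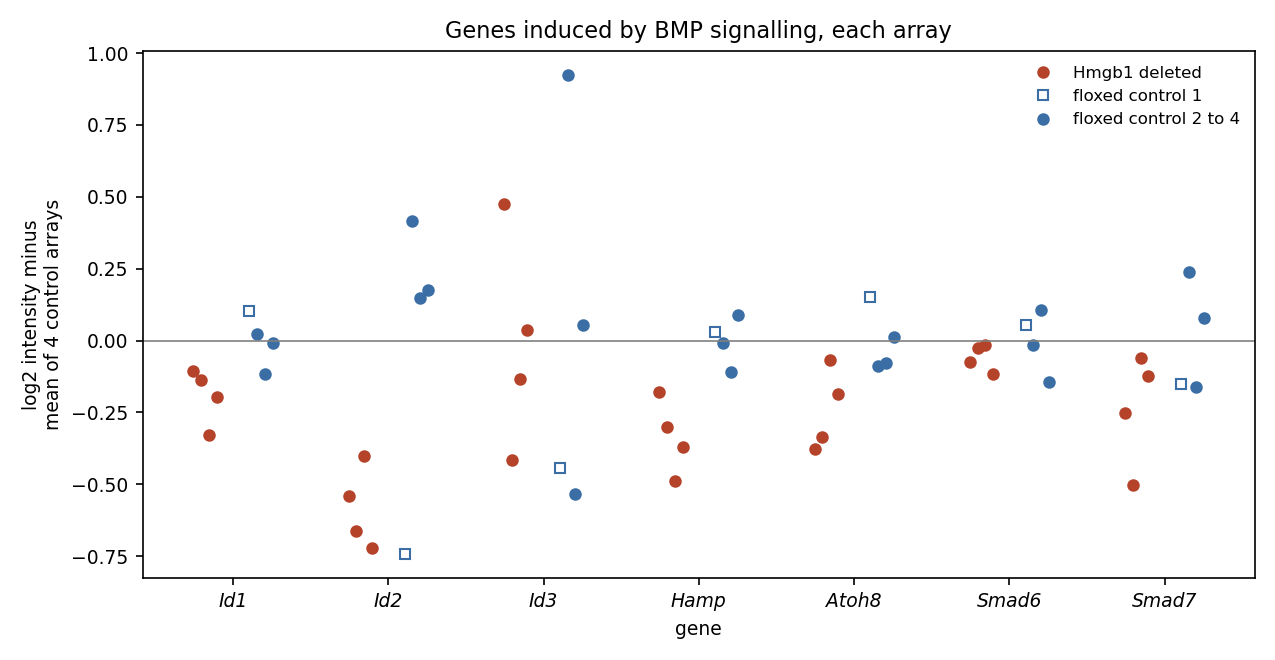
Log2 intensity of 7 genes known to be induced by BMP signalling, minus the mean of the 4 control arrays (y axis), with Hmgb1 deleted arrays in red left of the floxed controls in blue, and control 1 as an open square. Hamp is separate between groups, Id1 meets at 1 point, and for Id2 control 1 lies just below the deleted arrays.

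Promoter sequence is shown for Smad9, as the member with the largest difference of the 10, and for Hamp, as the main liver target, since GC-rich elements of the letters GGCGCC are a known kind of BMP-SMAD binding site and the hepcidin promoter holds one. Both are the 250 bases before the annotated start from RefSeq, build GRCm38.p6, read 5′ to 3′ on the gene's strand, with GGCGCC in capitals. That of Smad9 is at chr3:54755332-54755581 (plus strand) and that of Hamp at chr7:30944030-30944279 (minus strand).
Smad9: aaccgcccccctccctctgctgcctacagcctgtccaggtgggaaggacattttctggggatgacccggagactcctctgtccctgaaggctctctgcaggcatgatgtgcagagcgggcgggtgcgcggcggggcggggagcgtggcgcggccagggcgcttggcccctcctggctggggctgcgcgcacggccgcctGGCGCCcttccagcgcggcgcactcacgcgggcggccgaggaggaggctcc
Hamp: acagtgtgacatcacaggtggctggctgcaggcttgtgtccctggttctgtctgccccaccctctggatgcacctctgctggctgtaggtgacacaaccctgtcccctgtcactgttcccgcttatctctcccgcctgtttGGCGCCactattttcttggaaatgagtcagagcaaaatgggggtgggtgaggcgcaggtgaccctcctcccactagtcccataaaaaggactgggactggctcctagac

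The match begins 51 bases before the start in Smad9 and 109 bases before it in Hamp. Of the other targets searched, Id2 held GGCGCC from 231 bases before its start, while Id3 and Atoh8 did not hold it. Of the 10 BMP and SMAD genes 7 had an entry in the promoter table, with 9 windows of 300 bases between them (250 before and 50 from the start). GGCGCC, which reads the same on both strands, occurred in windows of 4 of the 7 genes, namely Smad9, Smad5, Bmpr1a and Bmpr2. Overlapping windows of Smad5 held the same match, while a further Smad5 window held none. Of all 32851 windows, 11.9% held GGCGCC. The SMAD box palindrome GTCTAGAC, also the same on both strands and sharing no overlap with the first, occurred in Smad6 alone of the 7, from 4 bases before its start, and in 0.213% of all windows. These matches describe letters in a window and were not tested for binding. The counts of genes, each counted if any window matched, and the percentages of all windows are unlike measures. No enrichment is read from them.

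The remaining genes of the route were taken from lists by role. In all, 85 of 87 listed genes were measured and 0 passed the threshold over all genes (limma), where 0.692% of all genes did. An unadjusted p under 0.05 was found for 12, beside 9.46% of all genes, and 31 were higher and 54 lower, with a median log2 difference of −0.030. Groups did not overlap for 5 of the 85, Hjv, Ski and Ctdsp1 as higher and Hamp and Ccn2 as lower, beside 3.28% (higher) and 2.3% (lower) of all genes. Without control 1, 3 of the 85 passed (Id2, Inhba and Inhbc), beside 321 of all 19938 genes. The 95% intervals of 79 of the 85 lay within 1.5-fold, beside 19371 of all 19938.

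**Figure D4:**
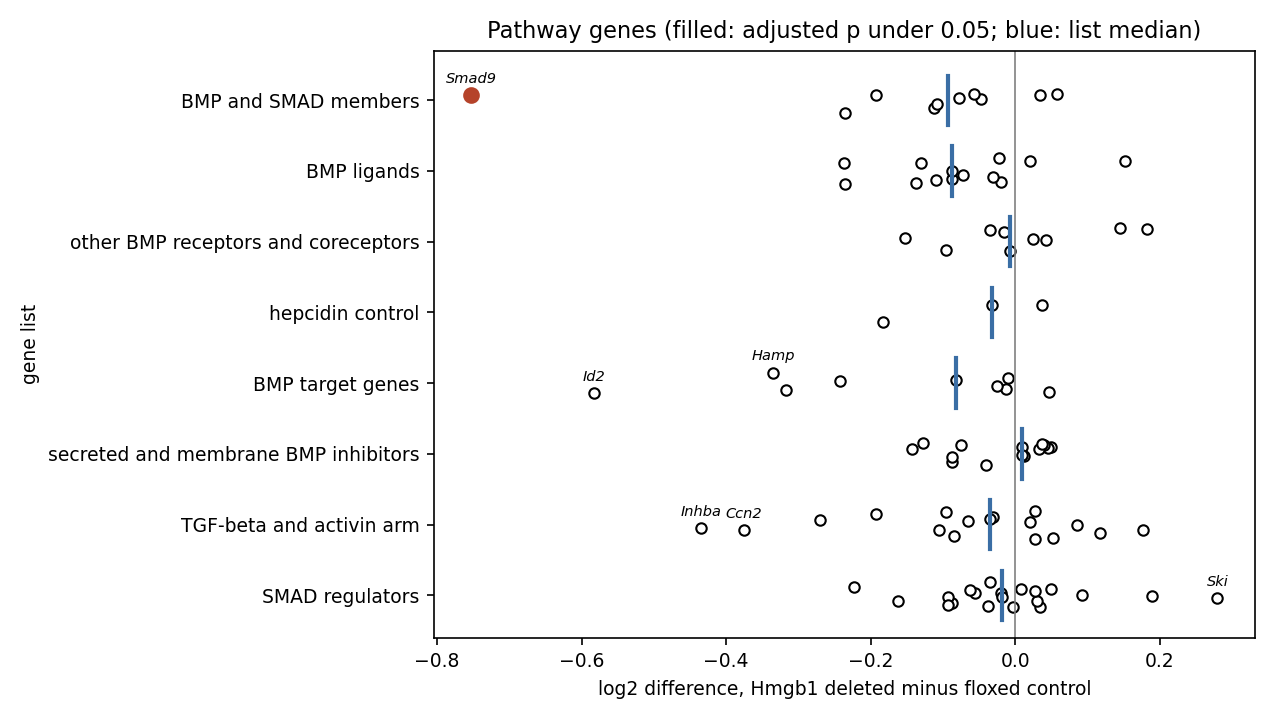
Log2 difference, Hmgb1 deleted minus floxed control (x axis), of every measured gene by list (y axis), as open circles or, with an adjusted p under 0.05 over all genes, filled ones, and list medians as blue lines. Smad9 is the single filled point, at −0.75, and list medians lie between −0.0925 and 0.010. Because Smad9 was chosen with this contrast known, its fill is a description and no test.

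Of the 13 BMP ligands 11 were lower, beside 9928 of all 19938 genes, with a median log2 difference of −0.0875. Among them 1 had an unadjusted p under 0.05 (9.46% of all genes) and 0 passed the threshold (limma). Bmp2, made by sinusoidal endothelial cells, read 7.35, 7.69, 7.33 and 7.70 log2 in deleted livers, against 7.49, 7.63, 8.04 and 7.86 in control livers, a log2 difference of −0.24 (SE 0.13, limma adjusted p = 0.678) with overlap, and −0.14 without control 3. Bmp6, the ligand that follows iron stores, read 7.57, 7.63, 7.83 and 7.54 log2 in deleted livers, against 7.69, 7.81, 7.76 and 7.86 in control livers, a log2 difference of −0.14 (SE 0.076, limma adjusted p = 0.685). Bmp4 had −0.24 (SE 0.10, limma adjusted p = 0.492). Markers of the sinusoidal endothelium were lower for 10 of 10, and 6 had an unadjusted p under 0.05 (9.46% of all genes). Groups did not overlap for 3 of them (2.3% of all genes with deleted lower). Array means of the 10 were 8.99 to 9.10 in deleted and 9.22 to 9.36 in control livers. Of these, Clec4g, a lectin of those cells, fell by 0.61 (SE 0.076, limma adjusted p = 0.00628) at its brightest probe set. Its dimmest probe set differed from that, at 0.085 (limma adjusted p = 0.897), and the mean of its probe sets gave −0.27 (limma adjusted p = 0.121). The part of these cells in the ligand values was not tested.

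Among 9 other receptors and coreceptors 4 were higher and 5 lower, 0 passed (limma) and 1 had an unadjusted p under 0.05 (9.46% of all genes). That was Hjv, hemojuvelin, the BMP coreceptor of hepatocytes, which read 10.96, 11.03, 11.09 and 10.90 log2 in deleted livers, against 10.84, 10.79, 10.76 and 10.86 in control livers. All deleted arrays lay above all controls, by a log2 difference of 0.18 (SE 0.062, limma adjusted p = 0.309), in the direction opposite to that of Hamp. Rgma, a coreceptor of the same family, had −0.15 (SE 0.082, limma adjusted p = 0.666) and Neo1, a receptor that binds hemojuvelin, 0.14 (SE 0.086, limma adjusted p = 0.732, 0.094 without control 1). The iron sensors upstream of Hamp had log2 differences of −0.18 for Hfe (SE 0.092, limma adjusted p = 0.623) and 0.037 for Tfr2 (SE 0.080, limma adjusted p = 0.980). Tmprss6, the protease that cleaves hemojuvelin, had −0.033 (SE 0.068, limma adjusted p = 0.978). Tfr2 turned to −0.022 without deleted 3 and Tmprss6 to 0.00083 without deleted 1. All 3 erythroid markers measured were lower, with array means of 8.38 to 8.54 in deleted and 8.57 to 8.97 in control livers, and their part in the iron-related values was not tested.

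Of 14 measured secreted and membrane inhibitors 8 were higher and 6 lower. Of these, 0 passed (limma), beside 0.692% of all genes, and 0 had an unadjusted p under 0.05, beside 9.46% of all genes. The smallest p belonged to Bmper (−0.13, SE 0.080, limma adjusted p = 0.761), Fst, the activin binder follistatin (−0.14, SE 0.094, limma adjusted p = 0.790, −0.057 without deleted 4) and Chrdl1, a chordin-like binder (−0.087, SE 0.077, limma adjusted p = 0.899, −0.028 without control 1). In the TGF-beta and activin arm 7 of 17 were higher and 10 lower, 0 passed (limma) and 4 had an unadjusted p under 0.05 (9.46% of all genes). Inhbc, a subunit of liver activin, read 9.87, 9.98, 9.74 and 9.84 log2 in deleted livers, against 9.90, 10.15, 10.20 and 10.26 in control livers, a log2 difference of −0.27 (SE 0.087, limma adjusted p = 0.266, 0.0372 without control 1, range over all alternatives 0.0277 to 0.604). Inhba, another activin subunit, read 7.42, 7.34, 7.22 and 7.30 log2 in deleted livers, against 7.27, 8.17, 7.64 and 7.94 in control livers, a log2 difference of −0.43 (SE 0.16, limma adjusted p = 0.347, 0.0242 without control 1, range over all alternatives 0.0242 to 0.69). For both subunits control 1 was the lowest control and lay among the deleted arrays. Ccn2, a TGF-beta target, had −0.38 (SE 0.14, limma adjusted p = 0.388), and −0.21 without control 1, its highest array.

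Among 20 regulators of SMAD activity 8 were higher and 12 lower, 0 passed (limma) and 3 had an unadjusted p under 0.05 (9.46% of all genes). Ski, a corepressor that binds SMADs, read 8.47, 8.51, 8.77 and 8.56 log2 in deleted livers, against 8.17, 8.25, 8.39 and 8.38 in control livers, a log2 difference of 0.28 (SE 0.082, limma adjusted p = 0.209) without overlap. Ctdsp1, a phosphatase that acts on SMADs, had 0.19 (SE 0.063, limma adjusted p = 0.295), also without overlap, and Nedd4l, a ubiquitin ligase, −0.22 (SE 0.079, limma adjusted p = 0.338).

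The genes whose values followed those of Smad9 most closely were found over the 8 arrays by the root mean square difference of log2 values, each gene centred on its own mean. Out of 19937 genes, with a median of 0.439, the nearest were Tmtc2 at 0.121, the transcription factor Foxp2 at 0.140, the amino acid transporter Slc43a1 at 0.157, the olfactory receptor gene Olfr1033 at 0.161 and Plekhb1 at 0.188. Foxp2 read 5.97, 6.24, 6.20 and 6.00 log2 in deleted livers, against 6.63, 6.88, 6.64 and 6.64 in control livers. Tmtc2 read 5.22, 5.53, 5.49 and 5.42 log2 in deleted livers, against 5.74, 6.31, 5.72 and 6.02 in control livers. Each of the 5 had deleted 1 or 2 as its lowest array and control 2 as its highest, as Smad9 had deleted 1 and control 2. The 5 were picked by likeness over these same arrays, so this shared pattern follows from the choice. On the lists of the BMP route, which held 85 of 19938 genes, 0 of the 5 was found.

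**Figure D5:**
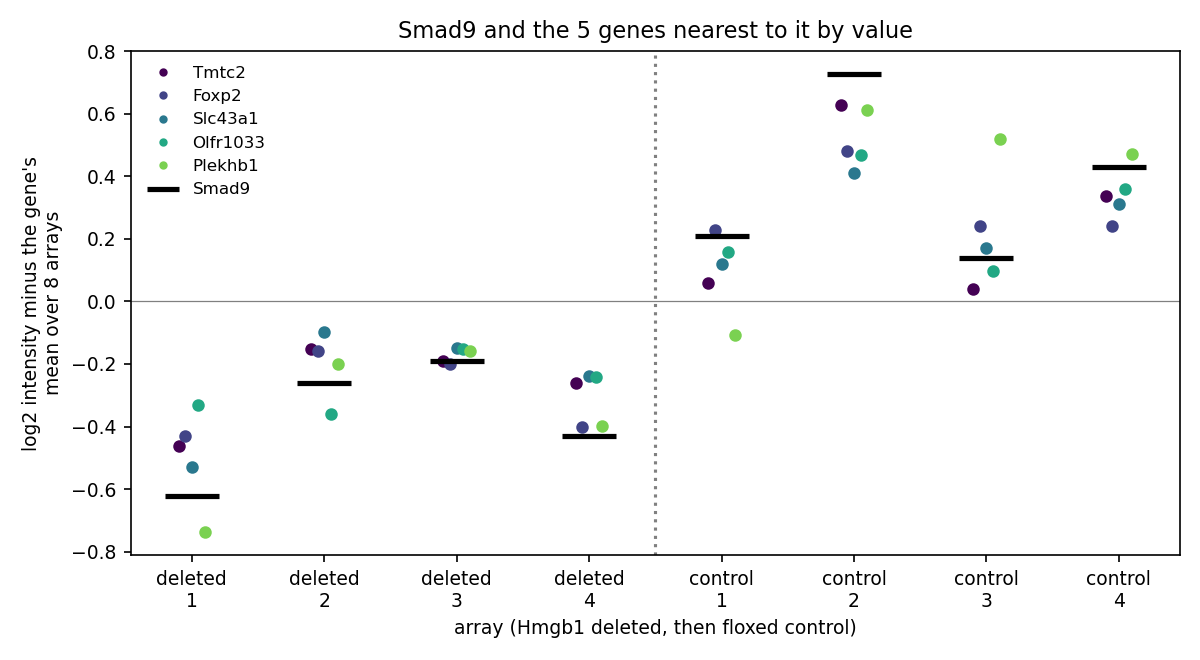
Log2 intensity minus the gene's own mean over 8 arrays (y axis) for Smad9, as black bars, and the 5 genes nearest to it, as coloured points, on each array (x axis, Hmgb1 deleted left of floxed control). Smad9 is lowest on deleted 1 and highest on control 2, where the 5 genes, picked by likeness over these arrays, are highest too.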

How the data were processed

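RNA of 8 liver samples (150 ng each, amplified and labelled with biotin, per the labels' protocols) was hybridised to 1-colour arrays. The authors deposited log2 intensities (2 decimals) from RMA, per the submitters' processing notes. This method removes background, brings arrays toward a common scale and combines the probes of a set. The deposited arrays were not fully equal, with medians from 6.08 (deleted 4) to 6.22 (control 1) and highest values from 13.58 (deleted 4) to 14.46 (control 4). The version of RMA and a genome build were not given in the sources used here. Arrays give no read depth. The 4 arrays per group limit the precision.

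Of 35556 probe sets 21789 had 1 gene symbol in GEO's platform annotation, 1621 several and 12146 none. Each of 19938 genes was taken at its brightest single-symbol probe set, with no filter. Gene IDs of 21698 of these sets were found in RefSeq (GRCm38.p6), where 0 symbols needed an update. The groups were compared with limma 3.58.1 in R 4.3.3 (2-sided, no covariate, Benjamini-Hochberg over all genes). The scripts were tested on simulated data. Figures used Python 3.11.15 and matplotlib 3.10.9.

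The members and lists were chosen with earlier results of these data known. Named were the 10 members, Hmgb1, the genes of each list past the threshold or otherwise up to 3 with the smallest p, close relatives, ligands and targets of the members, and the 5 genes nearest to Smad9. Other genes are named where groups did not overlap or as markers, after their values were seen. Listed genes without a value are not reported here. Same-numbered arrays of both groups did not all deviate together, so the replicate number was used as a block in an alternative only. The alternatives were scaling, prior variance, array weights, the block, each array left out, all probe sets, other choices among a gene's probe sets and a dim-gene filter.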

Additional observations from a re-analysis of the deposited data

Results flagged for a closer look

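Dixon's test for a stray value compares an extreme array's distance from the next value with the spread of all 4. It was run on 84 sets of 4 arrays and marked 4, and 1 in 20 (4.2 sets) would be marked by chance. On floxed control 1, Smad4 read 9.22 log2 against 9.44 to 9.45 on the other controls, Bmpr1a 7.98 against 8.46 to 8.51, and Bmp4 6.91 against 7.22 to 7.27. On floxed control 2, Foxp2 read 6.88 against 6.63 to 6.64. Without control 1 the log2 difference of Bmp4 was −0.32 (limma adjusted p = 0.114, range over all alternatives 0.0603 to 0.835).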

How the results depend on the processing

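The log2 difference of Smad9, whose direction was known when it was chosen, ran from −0.64 to −0.83 over 18 alternatives. Its adjusted p was under the threshold in 10 and over it in 8, which is a description of these arrays and no sign of stability. The number of the 10 BMP and SMAD genes past it was therefore 0 with all probe sets tested and with arrays centred on their medians, and 0 to 1 with single arrays left out. Their median log2 difference lay between −0.143 and −0.0454. The 85 other genes of the route held 5 calls with array weights (Hamp, Id2, Inhba, Inhbc and Nedd4l), 1 with the replicate block (Hamp, adjusted p = 0.0437), and 0 to 3 with single arrays left out. The genes called over the table were 254 after quantile normalization again (131 higher, 123 lower), 61 with arrays centred (33 and 28), 526 with array weights (212 and 314) and 325 with the replicate block (162 and 163). With single arrays left out they were 37 to 321, with 18 to 90 higher and 16 to 231 lower. Hmgb1 kept its difference of −0.905 but lost the call with all probe sets tested (adjusted p = 0.0652), ran from −0.773 to −1.01 with single arrays left out, and was removed by the filter on dim genes, as were Bmper, Chrdl1, Tmtc2 and Olfr1033. The log2 difference changed sign for Acvr1 and Smad3 with array weights (−0.0303 and −0.00923), for Id3 with arrays centred (0.010), for Id4 with arrays centred (0.0075) and array weights (0.0458), and for Clec4g at its dimmest probe set (0.085). With single arrays left out the ranges of those that changed sign were −0.060 to 0.0967 for Acvr1, −0.127 to 0.0167 for Smad5, −0.0408 to 0.0792 for Smad2, −0.0342 to 0.0917 for Smad3, −0.188 to 0.298 for Id3, −0.0583 to 0.0483 for Id4, −0.0217 to 0.102 for Tfr2 and −0.0792 to 0.000833 for Tmprss6. Leaving out an array or adding probe sets changes the number of arrays or tests, and otherwise the cause was not tested. Correlations of the deviations of same-numbered arrays were 0.447, 0.0652, −0.0814 and 0.422, and 2 of the 4 deleted arrays correlated best with the control of their own number. So few values cannot settle whether the numbers pair the samples, and the labels name no pairing. The number of arrays limits all intervals, and Hmgb1 lies near background, with 16.4% of genes dimmer.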
